A study of Ovis aries with 8 samples.

Results

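Macrophages are the resident phagocytes of adipose tissue. They depend on signals through the CSF1 receptor for survival, take up dying fat cells and lipid, sense bacterial products through surface receptors, and carry a large set of lysosomal proteins for digesting what they engulf. The genes described here are 10 that are commonly used to follow these cells. They are the receptors CSF1R, CD14, CD163 and MRC1, the membrane adaptor TYROBP, the intracellular protein AIF1, the lysosomal proteins CD68, ACP5 and LYZ, and the secreted protein SPP1. They were chosen by symbol and not by any measured value, although earlier results of these data were known at the time. Of the 10 genes, 7 were represented on the array, by 10 of its 24016 probe sets for transcripts and among 9155 named genes. CD163, MRC1 and LYZ had no probe set under their symbol and were not analysed here.

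Their RNA was measured in the fat that surrounds the kidney (perirenal adipose tissue), taken from 4 NmatCpat and 4 NmatNpat male lambs of 12 weeks of age, with 1 array per lamb. NmatCpat lambs carry the Callipyge mutation on the paternal allele and show the muscle hypertrophy and leanness of that genotype, whereas NmatNpat lambs carry wild-type alleles from both parents. All 8 lambs came from a Dorset/Suffolk/Rambouillet cross, the tissue was whole fat, and the animals were untreated. The comparison asked whether the mutation altered transcript levels in a fat depot. The array was designed on cattle sequence, so a probe set that matches sheep poorly can read low, and levels were compared between lambs within a probe set and never between genes. All levels below are log2 signal intensities after quantile normalization, so that a difference of 1 is a 2-fold difference. In whole tissue, fewer macrophages and less of a transcript per macrophage cannot be told apart.

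The arrays had similar median signals, 65.9 to 71.7 in NmatCpat and 65.3 to 72.6 in NmatNpat, and 16 of 19 fat cell markers had a mean above that of the median probe set, among them adiponectin (ADIPOQ), which read 12.8 to 13.3. The other 3, LEP, RETN and SLC2A4, lay below it. Markers of other tissues stood out on 2 arrays. In NmatNpat animal 1 all 10 neuron markers lay above their own mean, by 4.88 on average, and the ratio of the actin probe sets at the 3′ and 5′ ends was 26.1 against 4.04 to 11.8 on the other arrays. The same ratio for GAPDH did not stand out, at 1.06 in this lamb against 0.94 to 1.15 on the other arrays. In NmatCpat animal 4 the skeletal muscle markers were 1.56 above their mean. Some results are therefore also given without these lambs. Over the whole array 943 probe sets (3.93%) had P of 0.05 or less and a fold change above 1.5 between genotypes, the thresholds of the study, in the limma comparison, 491 of them higher (2.04%) and 452 lower (1.88%) in NmatCpat, and 657 (2.74%) had genotypes that did not overlap. At a Benjamini-Hochberg adjusted p under 0.05 the limma count was 0, with 1118 probe sets (4.66%) at an unadjusted P of 0.05 or less.

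None of the 7 macrophage genes differed between the genotypes at both thresholds. ACP5 was lower in NmatCpat fat at the P threshold alone, with a change smaller than 1.5-fold, and its levels in the genotypes did not overlap. CSF1R, CD14, CD68 and AIF1 instead varied from lamb to lamb within each genotype, and did so together, with low levels in animals 1 and 2 and high levels in animals 3 and 4 of each genotype. TYROBP varied little and SPP1 varied most.

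On their brightest probe sets, 0 of 7 macrophage genes passed both thresholds, where 2.91% of all named genes did, and 1 of 7 had P of 0.05 or less, where 3.79% of all named genes did. The same gene, ACP5, was the 1 of 7 whose levels did not overlap between the genotypes, where 2.84% of all named genes did not. With so few genes these shares cannot be set apart from the background. The exact permutation tests given below are two-sided over the 70 arrangements of 4 against 4 lambs, and the smallest p they can give is 0.0286.

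**Figure D1:**
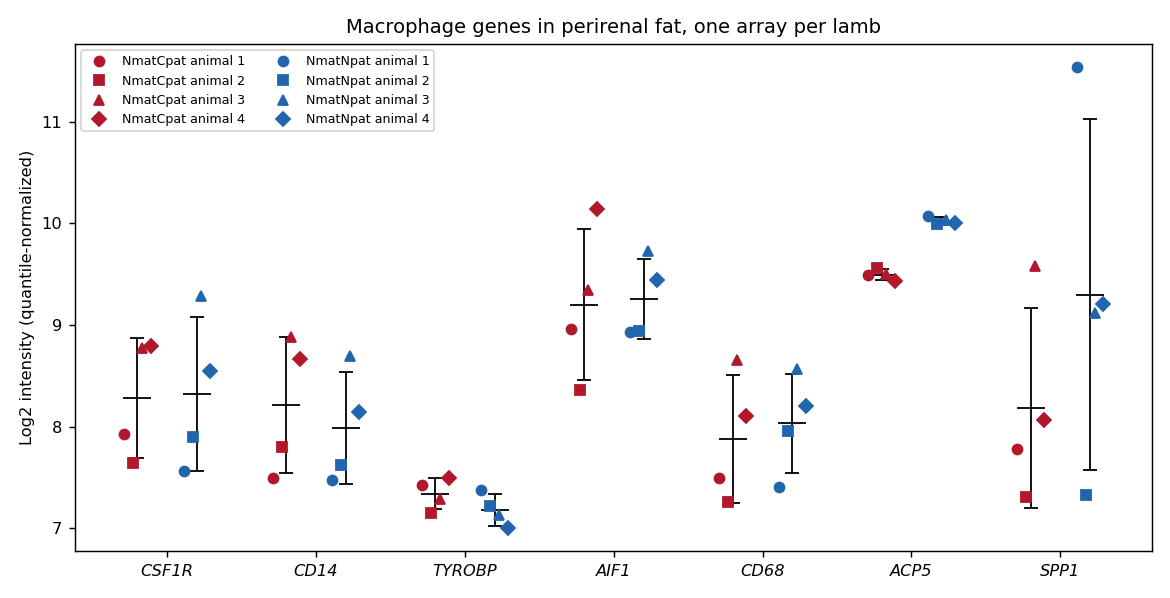
Level of each macrophage gene on its brightest probe set (log2 intensity, vertical axis) in 4 NmatCpat and 4 NmatNpat lambs, with each point 1 lamb and the bar the mean. CSF1R, CD14, CD68 and AIF1 spread over 1.40 to 1.78 log2 units with overlapping genotypes, whereas the ACP5 points of NmatCpat all lie below those of NmatNpat.

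CSF1R is the receptor tyrosine kinase for CSF1 and IL34, the growth factors on which macrophages depend, and lies on sheep chromosome 5. Its level was 7.93, 7.64, 8.78 and 8.79 in NmatCpat animals 1 to 4, against 7.56, 7.89, 9.28 and 8.54 in NmatNpat animals 1 to 4. In each genotype the first pair of animals was low and the second pair high, and the genotypes overlapped over almost their whole range. The means were 8.28 ± 0.59 in NmatCpat and 8.32 ± 0.76 in NmatNpat (SD, n = 4 each). The difference was -0.04 (95% interval -1.06 to 0.98, limma adjusted p = 0.998, exact permutation p = 0.943).

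CD14 is the co-receptor that hands bacterial lipopolysaccharide to TLR4, and it also lies on chromosome 5. NmatCpat lambs had levels of 7.49, 7.79, 8.88 and 8.67, against 7.47, 7.62, 8.69 and 8.14 in NmatNpat lambs. Animals 3 and 4 were again the high ones in both genotypes. NmatCpat averaged 8.21 ± 0.67 and NmatNpat 7.98 ± 0.55 (SD, n = 4 each), a difference of 0.23 (95% interval -0.70 to 1.16, limma adjusted p = 0.984, exact permutation p = 0.629). A dimmer CD14 probe set gave a difference of 0.26 and followed the first over the 8 lambs (Pearson r = 0.897, exact permutation p = 0.00382, adjusted p = 0.0153 over 4 pairs of probe sets; Spearman rho = 0.952, exact permutation p = 0.00114, adjusted p = 0.00456). Without the 2 lambs farthest from the median, r was 0.801.

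CD68 is a heavily glycosylated protein of macrophage lysosomes, encoded on chromosome 11. Its levels were 7.49, 7.25, 8.65 and 8.10 in NmatCpat and 7.40, 7.95, 8.57 and 8.20 in NmatNpat. The lambs high for CSF1R and CD14 were also high for CD68. The means were 7.87 ± 0.63 in NmatCpat and 8.03 ± 0.49 in NmatNpat (SD, n = 4 each), a difference of -0.16 (95% interval -1.02 to 0.70, limma adjusted p = 0.988, exact permutation p = 0.686).

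AIF1, also called IBA1, is a calcium-binding protein that bundles actin in macrophages and microglia and lies on chromosome 20. It read 8.96, 8.36, 9.34 and 10.14 in NmatCpat lambs, against 8.93, 8.94, 9.73 and 9.44 in NmatNpat lambs. The highest value was that of NmatCpat animal 4, the array with the skeletal muscle markers, and in both genotypes animals 3 and 4 lay above animals 1 and 2. The difference was -0.06 (95% interval -0.96 to 0.85, limma adjusted p = 0.996, exact permutation p = 0.886). Without NmatNpat animal 1 and NmatCpat animal 4 the AIF1 difference was -0.48. In the same setting the differences of CSF1R, CD14 and CD68 were -0.46, -0.09 and -0.44. None of these 4 genes reached the P threshold there.

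TYROBP, or DAP12, is the membrane adaptor that carries the signal of receptors such as TREM2, which have no signalling tail of their own, and lies on chromosome 14. NmatCpat lambs had 7.42, 7.14, 7.29 and 7.49, and NmatNpat lambs had 7.38, 7.21, 7.13 and 7.0. The genotypes overlapped, and the whole spread was 0.49 log2 units, against 1.72 for CSF1R. Only 7.64% of the 1662 genes of similar level had a smaller SD over the 8 lambs. The difference between genotypes was 0.16 (95% interval -0.22 to 0.54, limma adjusted p = 0.983, exact permutation p = 0.20).

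ACP5 is tartrate-resistant acid phosphatase, an enzyme of macrophage lysosomes and of osteoclasts, encoded on chromosome 5. Its brightest probe set read 9.49, 9.56, 9.51 and 9.43 in NmatCpat lambs, against 10.08, 9.99, 10.03 and 10.002 in NmatNpat lambs. Every NmatCpat lamb was below every NmatNpat lamb. The means were 9.50 ± 0.056 in NmatCpat and 10.02 ± 0.038 in NmatNpat (SD, n = 4 each), so that ACP5 was lower by a difference of -0.53 (SE 0.14, 95% interval -0.84 to -0.21). This amounted to a level in NmatCpat of 0.693 times that in NmatNpat, with a limma P of 0.00478, an adjusted p of 0.983 and an exact permutation p of 0.0286, the smallest the design can give. The spread within genotypes was small, with a pooled SD of 0.048 against a median of 0.218 for 759 genes of similar level, of which 0% had a smaller one. A second ACP5 probe set had overlapping genotypes (difference -0.44, limma P = 0.0711, exact permutation p = 0.0857), and the third and dimmest gave a difference of -0.01 (exact permutation p = 0.943). Over the 8 lambs the brightest probe set had a Pearson r of 0.742 with the second (exact permutation p = 0.0320, adjusted p = 0.0639). With the dimmest its r was 0.047 (exact permutation p = 0.837), and the second and the dimmest had an r of 0.509 (exact permutation p = 0.194). Averaged over its 3 probe sets the ACP5 difference was -0.33, with an unadjusted limma P of 0.105.

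SPP1, or osteopontin, is a secreted phosphoprotein that binds integrins and CD44 and is made by activated macrophages as well as by other cells, from a gene on chromosome 6. Its levels were 7.77, 7.31, 9.58 and 8.06 in NmatCpat and 11.54, 7.33, 9.11 and 9.20 in NmatNpat. The value of NmatNpat animal 1, the array with the neuron markers, lay far above that of the next lamb. The means were 8.18 ± 0.98 in NmatCpat and 9.30 ± 1.73 in NmatNpat (SD, n = 4 each), a difference of -1.11 (95% interval -3.14 to 0.92, limma adjusted p = 0.983, exact permutation p = 0.343). Without NmatNpat animal 1 the SPP1 difference was -0.37, and the part of neural tissue in the value was not tested.

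**Figure D2:**
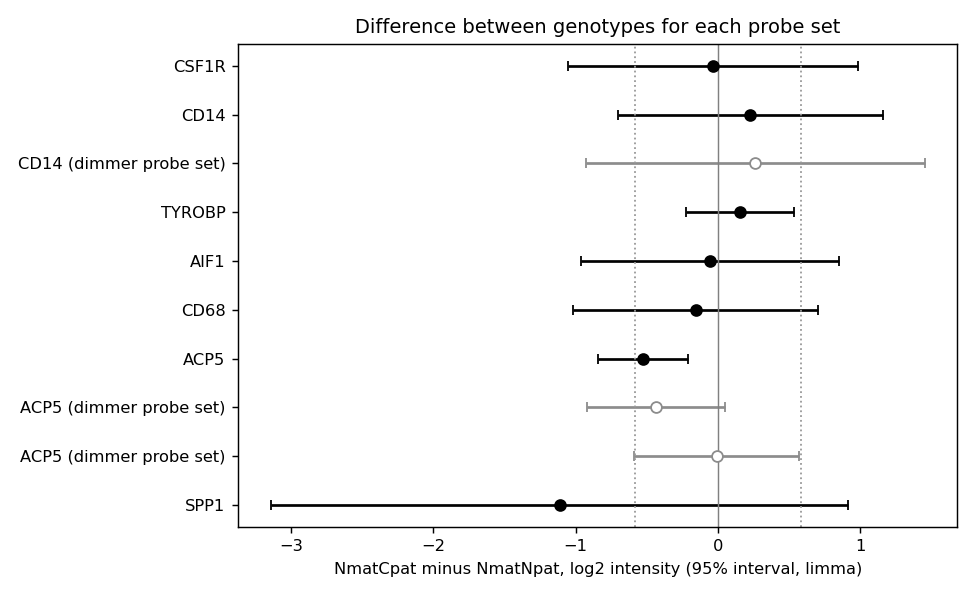
Difference between genotypes (NmatCpat minus NmatNpat, log2 units, horizontal axis) for the 10 probe sets of the macrophage genes, with 95% limma intervals; dotted lines mark a 1.5-fold change in either direction. The interval of the brightest ACP5 probe set, -0.84 to -0.21, lies below 0, and the other 9 intervals include 0.

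The covariation per lamb was examined next. Over the 21 pairs of the 7 genes the Pearson r across the 8 lambs had a median of 0.08 and ran from -0.53 to 0.91. It was above 0.7 in 6 pairs (28.6%), which were the 6 pairs among CSF1R, CD14, CD68 and AIF1, while 2.98% of all pairs of named genes and 3.34% of pairs of genes above the median level reached that value. CSF1R and CD68 had an r of 0.906 (exact permutation p = 0.00312, adjusted p = 0.0524) and a rho of 0.833 (exact permutation p = 0.0154, adjusted p = 0.0807). CSF1R and CD14 had an r of 0.906 (exact permutation p = 0.00627, adjusted p = 0.0524) and the same rho. CSF1R and AIF1 had an r of 0.844 (exact permutation p = 0.00749, adjusted p = 0.0524) and a rho of 0.929 (exact permutation p = 0.00223, adjusted p = 0.0469). After adjustment over the 21 pairs no Pearson correlation was under 0.05 and a single rank correlation was. Leaving out the 2 lambs farthest from the median left these 3 correlations at 0.917, 0.896 and 0.889 in the same order.

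The group of 4 was picked out after its values were seen and so carries no test of its own. Its 6 correlations ran from 0.72 to 0.91 with a median of 0.85. Taken as deviations from the mean of the own genotype they ran from 0.72 to 0.93 with a median of 0.88, so the relation was present within the genotypes. Without NmatNpat animal 1 and NmatCpat animal 4 the median was 0.88. The remaining genes did not join them over the 8 lambs, as TYROBP had r between -0.24 and 0.20, ACP5 between -0.26 and 0.08, and SPP1 between 0.06 and 0.15 with the 4 genes. As deviations from the mean of the own genotype, ACP5 had r of -0.73 to -0.35 with them. These values rest on very small differences, as the pooled SD of ACP5 within genotypes was 0.048 on its brightest probe set. For SPP1 the value rested on NmatNpat animal 1, without which its r over 7 lambs was 0.80 with CSF1R, 0.76 with CD14, 0.85 with CD68 and 0.54 with AIF1. The median over the 21 pairs was 0.33 without NmatNpat animal 1, 0.17 without NmatCpat animal 4 and 0.52 without both, the arrays that carried markers of other tissues.

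**Figure D3:**
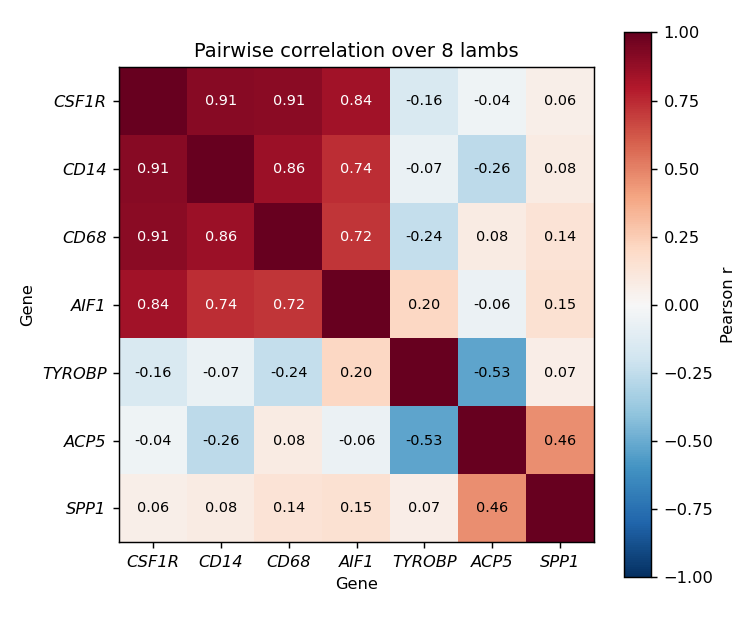
Pearson r over the 8 lambs for each pair of macrophage genes, colour scale from -1 to 1. The block of CSF1R, CD14, CD68 and AIF1 holds values of 0.72 to 0.91, and TYROBP, ACP5 and SPP1 lie outside it with values of -0.53 to 0.46.

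As an average over CSF1R, CD14, CD68 and AIF1, the deviation from the mean of the 8 lambs was -0.43, -0.63, 0.52 and 0.53 in NmatCpat animals 1 to 4, against -0.55, -0.29, 0.67 and 0.19 in NmatNpat animals 1 to 4. The highest lamb was NmatNpat animal 3 and the lowest NmatCpat animal 2, which lay 1.31 log2 units apart. All 4 genes were above their means in 4 lambs, and none or 1 of them in the other 4. Over all 7 genes the averages were -0.40, -0.61, 0.38 and 0.19 in NmatCpat and 0.15, -0.34, 0.46 and 0.17 in NmatNpat, where the raised value of NmatNpat animal 1 came with its SPP1. The animal numbers came from the sample labels, which do not say that a number links lambs of different genotypes.

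**Figure D4:**
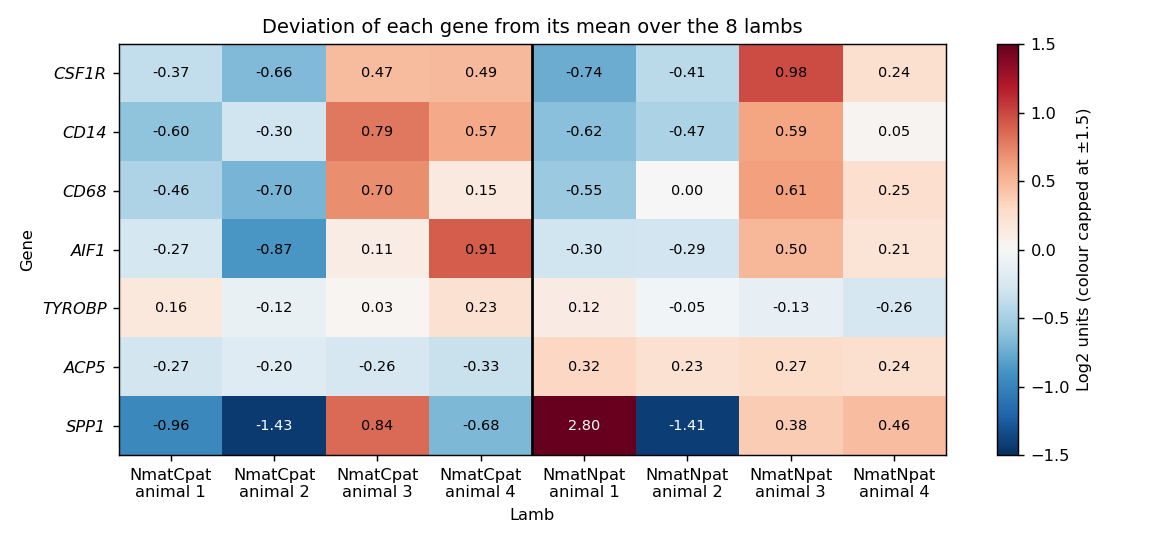
Deviation of each macrophage gene (rows) from its mean over the 8 lambs, in log2 units by colour and printed in each cell, for 4 NmatCpat and 4 NmatNpat lambs (columns). In CSF1R, CD14, CD68 and AIF1 animals 1 and 2 of each genotype lie below animals 3 and 4, and the 4-gene average ran from -0.63 to 0.67.

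Other genes of these pathways were read from 9 lists, of which 133 genes were measured besides the 7. Past both thresholds were 6 of the 133 (4.51%, against 2.91% of all named genes), 4 of them higher and 2 lower in NmatCpat, and the median difference was 0.01 against 0.00 for all named genes. All 6 had an adjusted p of 0.983 in the limma test. In the CSF1 receptor list, with the ligand CSF1 and the myeloid transcription factors, 0 of 10 genes passed, and the smallest P belonged to CSF2RB, the shared receptor chain for GM-CSF and IL3. CSF2RB read 5.75, 4.14, 6.05 and 5.16 in NmatCpat and 6.08, 6.47, 6.03 and 6.16 in NmatNpat (difference -0.91, limma P = 0.0529, exact permutation p = 0.0571).

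In the lipopolysaccharide receptor list 1 of 11 passed, which was LBP, the serum protein that loads CD14 (difference 1.34, limma P = 0.0463, exact permutation p = 0.143). LBP read 4.17, 4.66, 4.49 and 4.9 in NmatCpat against 2.19, 2.79, 2.89 and 4.99 in NmatNpat, where animal 4 was above every NmatCpat lamb. TLR4 did not reach the P threshold but was the 1 of these 11 genes whose genotypes did not overlap, where 2.84% of all named genes did not. It was lower in NmatCpat (difference -0.37, limma P = 0.0720, exact permutation p = 0.0286) and was named after its values were seen. In the TYROBP list, of myeloid receptors and signalling proteins that do not all bind TYROBP, 0 of 10 passed. SIRPA, an inhibitory receptor of myeloid cells in this list, was lower at a fold below 1.5 (difference -0.54, limma P = 0.0348, exact permutation p = 0.0857). The 2 dimmer SIRPA probe sets gave -0.26 and -0.30 and did not reach the P threshold. In the lysosomal list 1 of 24 passed, which was NPC1, the transporter that moves cholesterol out of lysosomes. NPC1 read 10.34, 10.23, 10.32 and 10.35 in NmatCpat against 10.65, 11.37, 10.41 and 11.17 in NmatNpat, with no overlap (difference -0.59, limma P = 0.0383, exact permutation p = 0.0286).

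Among the osteopontin receptors and matrix enzymes 1 of 13 passed, which was PLAUR, the urokinase receptor (difference 1.46, limma P = 0.0311, exact permutation p = 0.0571). The chemokine list had 1 of 12, the neutrophil attractant CXCL8 (difference 1.39, limma P = 0.0160, exact permutation p = 0.0571). The cytokine list had 2 of 19, with IL6 higher (difference 1.80, limma P = 0.0226, exact permutation p = 0.0571) and IL1B lower (difference -1.36, limma P = 0.0400, exact permutation p = 0.114). A dimmer IL1B probe set gave a difference of -0.41 (unadjusted limma P of 0.581). LBP, PLAUR, CXCL8, IL6 and IL1B had mean levels between 2.65 and 5.85, below the array median of all probe sets. Each of the 6 genes lost its call under at least 1 alternative way of analysing the arrays: LBP under 11 of 17, NPC1 under 11 of 18, PLAUR and IL6 under 5 of 17, IL1B under 8 of 17 and CXCL8 under 1 of 17. In the osteoclast list 0 of 7 passed. Its smallest P was that of the transcription factor FOS, whose genotypes did not overlap (difference -0.42, limma P = 0.0584, exact permutation p = 0.0286). A dimmer FOS probe set did pass both thresholds (difference -0.78, unadjusted limma P of 0.0172, adjusted p = 0.983).

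The list of 28 other macrophage surface and secreted genes had 0 past the thresholds, with a median difference of -0.01. Its smallest P was that of the lipid carrier APOE, which read 8.47, 8.52, 8.36 and 8.21 in NmatCpat and 10.28, 8.15, 8.92 and 8.82 in NmatNpat, highest in the array with the neuron markers (difference -0.65, limma P = 0.155, exact permutation p = 0.171). The same list followed the lambs as CSF1R, CD14, CD68 and AIF1 did. Its average deviation came to -0.37, -0.34, 0.34 and 0.41 in NmatCpat, against -0.48, -0.17, 0.51 and 0.10 in NmatNpat. In NmatCpat animals 1 to 4, 8, 6, 22 and 22 of the 28 genes were above their own means, and 8, 10, 24 and 19 were in NmatNpat animals 1 to 4.

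Likeness to CSF1R over the 8 lambs was described by Pearson r, with no test. Of 9148 named genes 4.80% had an r above 0.7, as did 11 of the 28 other macrophage genes (39.3%), 3 of 10 genes of the TYROBP list (30%) and 6 of 24 lysosomal genes (25%). The share was lower in the other pathway lists, with 3 of 19 cytokines, 2 of 13 osteopontin receptors and matrix enzymes, 1 of 7 osteoclast genes, 1 of 10 genes of the CSF1 receptor list, 1 of 11 of the lipopolysaccharide receptor list and 0 of 12 chemokines. The genes named next were chosen after their values were seen. C1QA, a chain of the complement component that tissue macrophages make, read 9.32, 9.11, 10.56 and 10.73 in NmatCpat and 9.18, 9.18, 10.55 and 10.61 in NmatNpat. F13A1, the A chain of coagulation factor XIII, read 9.25, 9.40, 10.54 and 10.18 in NmatCpat and 8.83, 9.53, 10.32 and 10.10 in NmatNpat. LYVE1, a hyaluronan receptor of resident macrophages and lymphatic vessels, read 9.14, 9.01, 10.36 and 10.17 in NmatCpat and 9.25, 9.87, 10.40 and 9.93 in NmatNpat. In all 3 genes animals 1 and 2 lay below animals 3 and 4 of their genotype.

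Markers of other cells were read the same way. Of 11 fibroblast and mesothelial markers 6 (54.5%) had an r above 0.7 with CSF1R. In this list r ran from -0.37 for KRT18 to 0.97 for COL3A1, a chain of fibrillar collagen that was named after its values were seen. KRT8, PDGFRA and UPK3B had r of -0.10, 0.14 and 0.25. COL3A1 read 13.73, 13.62, 13.98 and 13.96 in NmatCpat and 13.73, 13.71, 14.09 and 13.85 in NmatNpat. Here too animals 3 and 4 were the high ones of each genotype, over a spread of less than 0.5 log2 units. NmatCpat animals 1 to 4 had average deviations of 0.19, -0.33, 0.37 and -0.06 over these markers, against -0.44, -0.21, 0.13 and 0.35 in NmatNpat animals 1 to 4. The keratin KRT18 weighed heavily in these averages, at 2.12 above its mean in NmatCpat animal 1 and 2.82 in NmatNpat animal 4. Without KRT18, left out after its values were seen, the averages were -0.01, -0.35, 0.43 and 0.06 in NmatCpat and -0.46, -0.18, 0.40 and 0.11 in NmatNpat. With all 11 markers the sign differed from that of the average of CSF1R, CD14, CD68 and AIF1 in NmatCpat animals 1 and 4. Without KRT18 the sign was the same in all 8 lambs, but in NmatCpat animal 1 this rested on a value of -0.01. The part of connective tissue in the covariation was not tested. The endothelial list had 1 of 8 genes with an r above 0.7, which was CLDN5 (r = 0.82). The T cell, B cell, neutrophil, mast cell, dendritic cell, fat cell, neuron, skeletal muscle and red cell lists had 0. T cell markers averaged -0.11, -0.30, -0.14 and 0.08 in NmatCpat and 0.48, 0.12, -0.11 and -0.03 in NmatNpat, and were highest in NmatNpat animal 1, where CSF1R, CD14, CD68 and AIF1 were low.

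**Figure D5:**
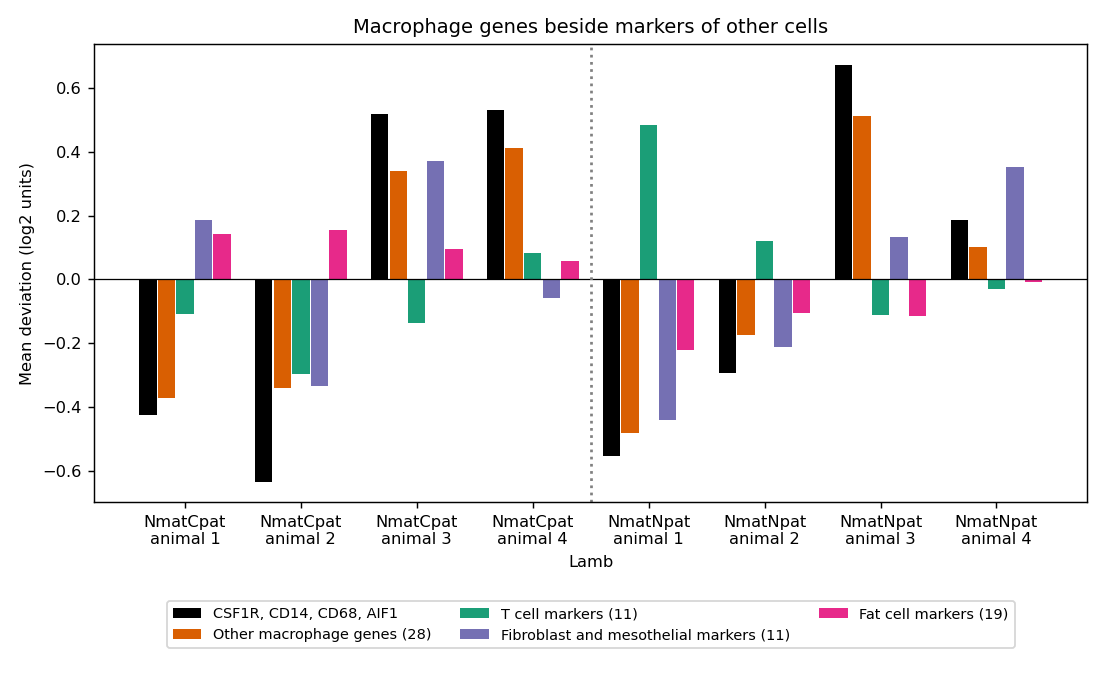
Mean deviation from the 8-lamb mean (log2 units, vertical axis) of 5 groups of genes in 4 NmatCpat and 4 NmatNpat lambs; the bars stand for CSF1R, CD14, CD68 and AIF1, 28 other macrophage genes, 11 T cell markers, 11 fibroblast and mesothelial markers and 19 fat cell markers. The first and second bars have the same sign in all 8 lambs, and the fat cell bars stay between -0.22 and 0.15.

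Between the genotypes, 0 fibroblast and mesothelial, T cell, B cell, neutrophil, mast cell, dendritic cell, endothelial, neuron, muscle and fat cell markers passed both thresholds. Red cell markers were the exception, with 2 of 6 higher in NmatCpat, where 1.39% of all named genes were. These were AHSP, the chaperone of alpha globin (difference 2.22, limma P = 0.0108, adjusted p = 0.983, exact permutation p = 0.0286), and the globin HBM (difference 0.90, limma P = 0.0489, adjusted p = 0.983, exact permutation p = 0.0857). HBM lost its call under 9 of 17 alternatives and AHSP under 0 of 17. Their mean levels were 3.90 and 4.88, below the array median of all probe sets. Of the other red cell markers, the globin HBA and the haem enzyme ALAS2 had differences of -0.34 and -0.09, and HBB and SLC4A1 had 0.32 and 0.18. Fat cell markers averaged 0.06 to 0.15 in NmatCpat and -0.22 to -0.01 in NmatNpat.

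Finally, the genes most like the average of all 7 macrophage genes were taken among 4570 other named genes above the median level, as the 10 with the highest r over the 8 lambs. The average was not scaled by the spread of each gene, so SPP1, which varied most, weighed heavily in it. In NmatNpat animal 1 the 7-gene average lay at 0.15, against -0.55 for that of CSF1R, CD14, CD68 and AIF1. Likeness to it is therefore not likeness to those 4 genes, and C1QA, with an r of 0.92 with CSF1R, was not among the 10. The 10 were MED13L (0.960), TCIRG1 (0.953), ICAM1 (0.947), PDLIM4 (0.938), ATOSB (0.932), CST3 (0.927), GAS2L1 (0.926), RCN2 (0.912), PLEKHO2 (0.910) and CYBB (0.909). As the highest of 4570 values from 8 lambs these are a description of likeness and have no test. Some are known in macrophages, where CYBB is the catalytic subunit of the phagocyte oxidase, TCIRG1 a subunit of the proton pump that acidifies lysosomes and the osteoclast surface, and CST3 the secreted cathepsin inhibitor cystatin C. CYBB read 8.20, 8.11, 8.90 and 9.21 in NmatCpat and 8.67, 8.45, 9.37 and 9.17 in NmatNpat. TCIRG1 read 8.97, 8.76, 9.17 and 9.14 in NmatCpat and 9.22, 8.87, 9.34 and 9.18 in NmatNpat. In both genes animal 2 was the lowest lamb of each genotype. The smallest limma P between the genotypes among the 10 was that of CYBB (difference -0.31, exact permutation p = 0.40).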

How the data were processed

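RNA of perirenal fat from 4 NmatCpat and 4 NmatNpat lambs (groups from the genotype labels) had been hybridised to Affymetrix Bovine Genome arrays. The deposited values were linear MAS5 signal intensities, 1 column per lamb, whose columns did not share quantiles although the authors' methods name quantile normalization. They were converted to log2 and quantile-normalized over the 8 arrays, and 112 control probe sets of 24128 were left out of the test. MAS5 has no counts, so the number of arrays limits the precision. Of the tested probe sets 13292 had 1 gene symbol in the platform annotation, 86 several and 10638 none. Symbols were matched to a sheep RefSeq gene table for chromosomes. The brightest probe set by mean stood for a gene. Genotypes were compared with limma 3.58.1 in R 4.3.3 over all probe sets, with Benjamini-Hochberg adjustment, and correlations with Python 3.11.15 and scipy 1.17.1; the limma step was tested on simulated data. The lambs are separate animals, and no 2 arrays shared more than 0.34% of identical values.

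The macrophage genes and the gene lists were chosen with earlier results of these data known. Named besides them were the gene with the smallest P in a list, up to 3 genes per list past the thresholds, and the 10 genes most like the macrophage average. Other genes, such as TLR4, C1QA and COL3A1, were named after their values were seen. Alternatives were other normalizations, an offset of 16, variance models, a level filter, averaged probe sets, a replicate block and left-out lambs. Arrays with no quantile normalization, the count at any fold, SPP1 without NmatNpat animal 1, connective tissue markers without KRT18 and the alternatives of the per-lamb averages and gene lists were added after seeing the data. Sequences were not used here.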

Additional observations from a re-analysis of the deposited data

How the results depend on the processing

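The count of macrophage genes past both thresholds was 0 under each of 18 alternatives. ACP5 was lower in all of them (difference -0.55 to -0.33), with P of 0.05 or less in 17. The exception was the mean of its 3 probe sets (unadjusted limma P of 0.105). The adjusted p of ACP5 was 0.0582 in the gene-wise model without moderated variances, where its SE was 0.034 against 0.14 in the main limma fit. In the other alternatives its limma adjusted p ran from 0.912 to 0.9996. Probe sets past both thresholds numbered 943, but 626 with a gene-wise model without moderated variances (0 at an adjusted p under 0.05) and 244 above the median level (1 at an adjusted p under 0.05), where fewer probe sets were tested. Pathway list genes past them numbered 6, but 3 and 1 under the same settings. Leaving out 1 lamb at a time gave 980 to 1054 probe sets, 4 to 7 pathway genes, a median pairwise correlation of -0.081 to 0.33 and a range of the 7-gene average between lambs of 0.856 to 1.07, the lowest without NmatCpat animal 2. Without NmatNpat animal 1 and NmatCpat animal 4 the median pairwise correlation was 0.52, against 0.08 over all lambs; the cause was not tested. The 6 correlations among CSF1R, CD14, CD68 and AIF1 had medians of 0.84 to 0.89 over 15 alternatives, with 0.58 the lowest single value. Over all probe sets the deviations of same-numbered lambs had r of -0.01 to 0.05, and those of different-numbered lambs -0.06 to 0.02. The highest values, 0.05 and 0.04, were those of the lambs numbered 3 and 1. All were small and the labels name no pairs, so the numbers were not taken as pairs. A structure by animal number was not tested further. CSF1R, CD14, CD68 and AIF1 did follow the numbers, with animals 1 and 2 below animals 3 and 4 in each genotype. With the animal number as a replicate block the SE of the CSF1R difference fell from 0.44 to 0.23, and that of CD14 from 0.40 to 0.18. In that setting the counts were 0 macrophage genes, 1124 probe sets and 6 pathway genes, and ACP5 had a limma P of 0.0244. Of the single-gene values under alternatives, 619 stayed on their side of the thresholds, 50 fell short, 19 came to pass and 0 called ones reversed; the uncalled differences of CSF1R, CD14, CD68 and AIF1 lay on either side of 0 across alternatives.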
